A study of Rosa roxburghii with 15 samples.

Results

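Flower was compared with leaf in *Rosa roxburghii*, a wild rose grown for its fruit. The comparison rests on 6 of the 15 RNA-seq libraries of the series, the 3 libraries of blooming flowers and the 3 libraries of mature leaves taken without their petioles. All plants were wild plants of normal phenotype grown at one site, and both tissues were collected in May, so month does not separate them. The other 9 libraries, 3 each of stem, young fruit and mature fruit, entered through the estimate of the spread and the filter that decided which unigenes were tested. They also entered the scale factors of an alternative fit. Stem, also collected in May, is given beside some values. The study's text describes 3 biological replicates per tissue, whereas the sample labels describe 2 replicates of 3 plants each, so p-values here measure only the spread between these libraries, part of which may be technical. Flower and leaf were each extracted whole. In such bulk samples fewer cells of a type and less RNA per cell cannot be told apart.

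Expression is given as FPKM, the fragments aligned to a unigene scaled by its length and by all aligned fragments of the library, where a unigene is a gene-like cluster of transcripts assembled without a genome. The files list 63727 unigenes and give gene names to none of them. The study names some by their best protein match as *MYBs*, 142 tested here and 21 too low to test, so named genes below are *MYBs*, and each name means a homolog of that gene in another plant. MYB proteins are transcription factors that bind DNA through imperfect helix-turn-helix repeats, and those with a pair of repeats, the R2R3 class, form one of the largest families in plants. Members of that class switch flavonoid, anthocyanin, lignin and wax genes on or off, shape epidermal cells, and control growth of petals and stamens, while single-repeat members often act in light, clock and phosphate responses. No defining marker of flower or leaf could be set, since only *MYBs* carry names, and the nearest to one are the homologs of floral organ MYBs described below.

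The sources used here print sequence for 12 of these unigenes, as the primer pairs of the qRT-PCR assay. Of those, 2 differed between flower and leaf, beside 18.8% of all unigenes tested. Their primers are shown because they are the stretches by which these unigenes can be found again. All are written 5′ to 3′ in lower case.
DN147128_c3_g4 (MYB3) sense: aatcacaaccaccaccaacac
DN147128_c3_g4 (MYB3) antisense: gcttcagatagacatcacattcca
DN144339_c1_g4 (MYB6-like) sense: atgcctcgctgctctgaa
DN144339_c1_g4 (MYB6-like) antisense: tgtggtgacctgaacttgga
The other 10 assayed *MYBs* were not called different between the tissues. Among them were DN139053_c0_g1, a homolog of the phloem regulator APL, at 17.8 ± 0.766 FPKM in flower and 17.3 ± 0.127 in leaf (SD, n = 3 each), and the DIVARICATA homolog DN146332_c2_g2 at 16.8 ± 0.223 and 14.4 ± 0.842 FPKM.

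The 6 libraries separated by tissue. Across unigenes, Pearson's r of log2(FPKM + 0.1) was 0.959 to 0.961 within flower, 0.963 to 0.967 within leaf and 0.897 to 0.903 between flower and leaf, given as a description because unigenes are not independent replicates. A flower library listed 37803 to 37994 unigenes above 0 and a leaf library 36317 to 37290. The most abundant 100 unigenes held 18.7 ± 1.51% of the summed FPKM in flower and 25.9 ± 0.517% in leaf (exact two-sided permutation test over libraries, p = 0.1, the smallest that 3 against 3 allows). Flower library 1 had the highest share of its tissue, 20.4%. FPKM is relative to the fragments of a library, and median-of-ratios scaling, which lines up the typical unigene, gave mean factors of 1.10 for flower and 0.874 for leaf. How much the abundant leaf unigenes contribute to that gap was not tested. Without counts in the files, the counting error of a value is not known. Among unigenes above 0 but below 0.15 FPKM in both libraries of a pair, the commonest ratio of flower to leaf was 1.01 to 1.27 over the 9 pairs. That ratio covered only 3.01 to 6.32% of those unigenes. Whether it reflects the FPKM worth of 1 fragment was not tested.

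Of the 51175 unigenes above 0.1 FPKM in at least 3 of the 15 libraries, 9605 differed between flower and leaf, or 18.8%. The other tissues admitted some of those tested, as 36526 unigenes passed the same filter on the 6 flower and leaf libraries alone. A difference had to reach an FDR of 0.01, which here is the p-value of limma on log2(FPKM + 0.1) adjusted after Benjamini-Hochberg, and a log2 fold change of 1 in either direction. There were 6249 unigenes higher in flower (12.2%) and 3356 lower (6.56%). This split depended on the scale, since 4311 were higher (8.43%) and 4547 lower (8.89%) after median-of-ratios scaling, which moved flower down against leaf by 0.33 on the log2 scale. Stem against leaf gave 12231 calls (23.9%) and flower against stem 9719 (19.0%), both of which share libraries with the comparison of flower and leaf.

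At the ends of the range stood unigenes without names. DN140977_c0_g1 was at 235, 241 and 242 FPKM in the flower libraries and at 0.126, 0.218 and 0.303 in leaf, a log2 fold change of 9.61 (SE 0.40, limma FDR = 1.19e-09). DN144450_c4_g4 was at 68.9, 75.7 and 82.7 FPKM in flower and listed at 0 in the 3 leaf libraries. In the other direction, DN146427_c0_g1 was at 209.8, 192 and 171 FPKM in leaf, and in flower it was listed at 0 in libraries 1 and 3 and at 2.30 FPKM in library 2. This unigene passed the filter on low values only through the leaf libraries, so its call is no independent evidence. DN145601_c1_g1 was at 63.3, 69.0 and 86.8 FPKM in leaf and above 0 in flower library 1 alone, at 1.95 FPKM. These 4 were picked from called unigenes whose flower libraries all lay on one side of the leaf libraries. That their tissues did not overlap follows from this choice. In all, 819 unigenes were above 0 in every flower library and listed at 0 in every leaf library, and 428 showed the reverse.

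Of the *MYBs*, 142 passed the filter on low values and 21 did not. These 21 hold 12 that were listed at 0 in all 6 libraries and 9 with a value above 0 in at least 1. Among the tested, 35 were higher in flower (24.6%), 18 were lower (12.7%) and 89 did not pass, beside the 12.2% and 6.56% of all unigenes given above. The 89 include 7 listed at 0 in all 6 libraries, which other tissues carried past the filter and which could not be called here. After median-of-ratios scaling the counts were 32 and 23, beside 8.43% and 8.89% of all unigenes. *MYBs* reached 1 FPKM more often than the unigenes as a whole, and calls were more frequent at that level. Of the 98 *MYBs* with a mean of at least 1 FPKM over the 15 libraries, 24 were higher and 16 lower in flower, and of the 23845 unigenes at that level 18.4% were higher and 9.74% lower. The 3 flower libraries lay entirely above the 3 leaf libraries in 57 *MYBs* tested and entirely below in 35, and the same was true of 29.4% and 14.8% of all unigenes tested. The median log2 fold change was 0.13 over *MYBs* and 0.03 over all unigenes tested, and at a mean of at least 1 FPKM it was 0.18 over *MYBs* and 0.30 over unigenes. Of the 35 called higher, 3 passed the filter only through the flower libraries in which they were high, DN147925_c5_g4, DN144669_c3_g1 and DN146459_c2_g4, so a difference was built into their being tested. None of the 18 called lower passed only through leaf.

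**Figure D1:**
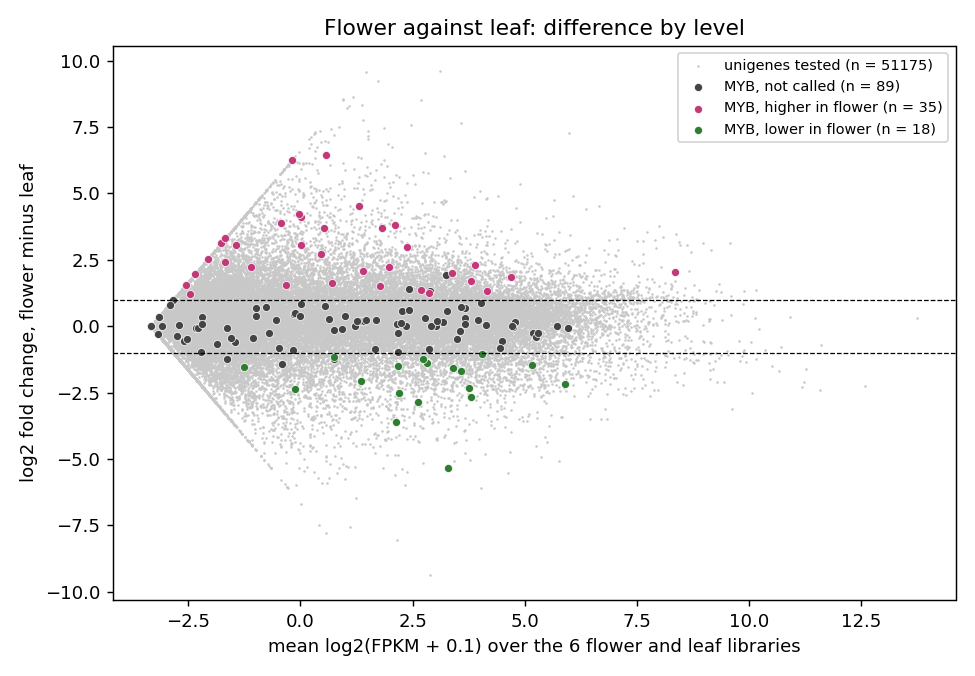
Log2 fold change of flower over leaf (vertical) against the mean log2(FPKM + 0.1) of the 6 libraries (horizontal) for each of the 51175 unigenes tested, in grey, with the 142 *MYBs* tested as larger points. Dashed lines mark an absolute log2 fold change of 1. The 35 *MYBs* called higher in flower spread over the range of levels, up to the most abundant one at the right, and the 18 called lower end at -5.34.

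The order of the tissues in summed *MYB* level rested on a single unigene. Summed over all *MYBs*, tested or not, flower libraries held 1714 ± 13.8 FPKM and leaf libraries 1312 ± 16.3 (SD, n = 3 each, exact two-sided permutation test, p = 0.1, the smallest possible). After median-of-ratios scaling the sums were 1556 and 1501 FPKM, and the libraries overlapped (exact p = 0.2). DN145829_c0_g2, whose best match is an R2R3-like protein of *Populus*, led both tissues, with 665, 677 and 640 FPKM in flower and 162, 160 and 155 in leaf. Its fold was 4.17, a log2 fold change of 2.06 (SE 0.25, limma FDR = 2.11e-05). Without it, the other *MYBs* summed to 1053 FPKM in flower and 1153 in leaf, so the order of the tissues turned. At least 1 FPKM on average was reached by 94 *MYBs* in flower and 81 in leaf. Of these, 78 reached it in both tissues, 16 in flower and not in leaf, and 3 in leaf and not in flower. The 16 include DN147056_c0_g2, not tested, whose flower mean of 1.31 FPKM rests on flower 1 alone. Unigenes as a whole also reached 1 FPKM more often in flower, with 22760 to 23231 per flower library and 21418 to 21875 per leaf library.

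Below that unigene the leading *MYBs* of both tissues overlapped in part. DN144159_c2_g1, a MYB-like protein X, was at 61.2, 59.7 and 60.3 FPKM in flower and 62.8, 63.9 and 63.3 in leaf, and it was not called (limma FDR = 0.656). DN146126_c4_g1, a homolog of ETC1, a single-repeat repressor of trichomes in *Arabidopsis*, stood at 53.1 ± 3.34 and 52.3 ± 2.08 FPKM. The MYB82-like DN146459_c2_g1 and the MYB-like family protein DN144924_c2_g5, at 49.2 ± 2.83 and 36.2 ± 1.24 FPKM, completed the 5 highest in flower. In leaf, the 5 highest included DN133642_c0_g1 (MYB1R1), DN143366_c4_g3 (MYB-like protein J) and DN136168_c0_g1 (MYB308), all called lower in flower.

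**Figure D2:**
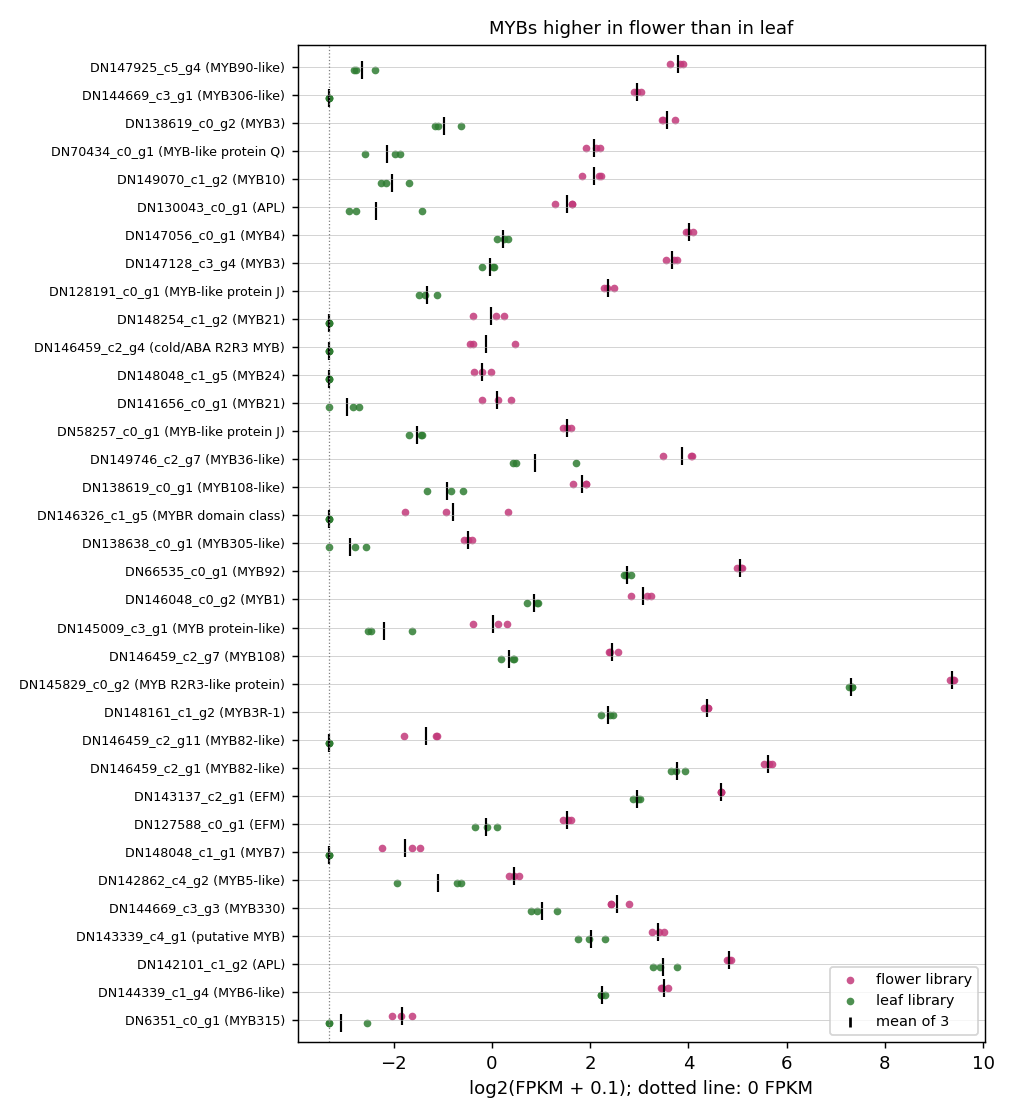
The 35 *MYBs* called higher in flower, ordered by log2 fold change, with log2(FPKM + 0.1) on the horizontal axis. Points are the 3 flower and 3 leaf libraries, short bars their means, and the dotted line marks 0 FPKM. In all 35 the flower libraries lie to the right of the leaf libraries, and several leaf points lie on the dotted line.

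**Figure D3:**
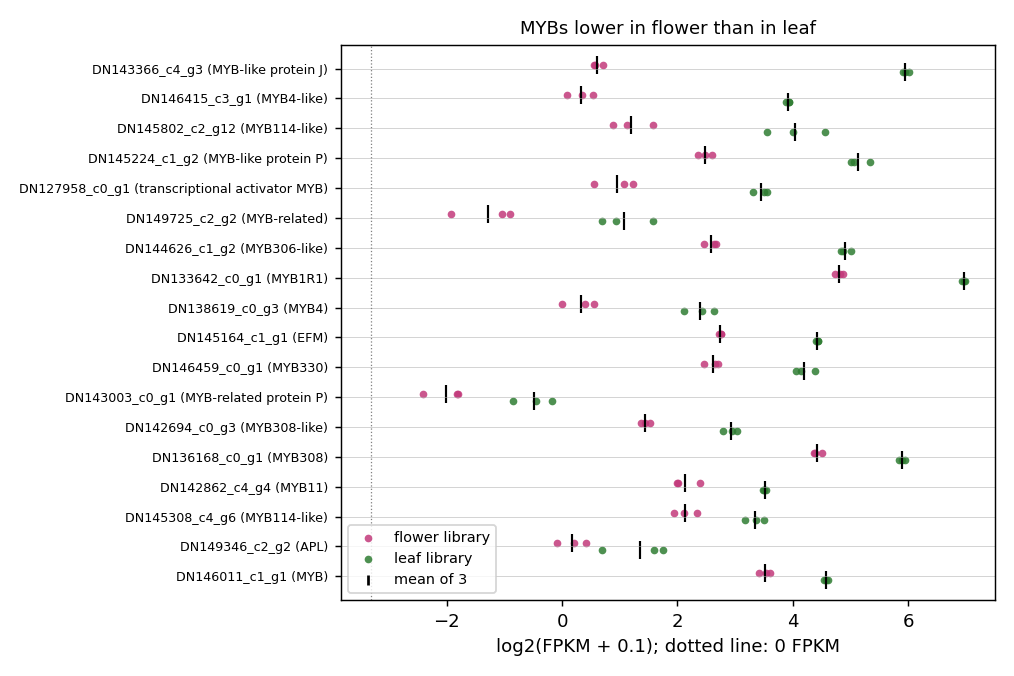
The 18 *MYBs* called lower in flower, drawn in the same way with log2(FPKM + 0.1) on the horizontal axis and 1 point per library. All leaf libraries lie to the right of the flower libraries, with the widest gap in DN143366_c4_g3.

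Homologs of anthocyanin activators differed in both directions. This group holds homologs of MYB10, which switches on red pigment in apple and strawberry, and of MYB90 and MYB114, which do so in *Arabidopsis*. Of 8 members, 7 were tested, 2 were higher in flower and 2 lower, beside 12.2% and 6.56% of all unigenes. DN147925_c5_g4, a MYB90-like unigene, was at 14.0, 14.8 and 12.2 FPKM in flower and at 0.0429, 0.0916 and 0.0467 in leaf. Its log2 fold change of 6.43 (SE 0.33, limma FDR = 6.79e-09) was the largest of all *MYBs* called. The unigene passed the filter only through the flower libraries, so its call and FDR are no independent evidence. DN149070_c1_g2 (MYB10) was at 4.46, 3.47 and 4.54 FPKM in flower and at 0.123, 0.209 and 0.108 in leaf (log2 fold change 4.12, SE 0.37, limma FDR = 1.40e-06). In both, as in all 35 *MYBs* called higher, every flower library exceeded every leaf library. A call favours such separation, and 29.4% of all unigenes tested had every flower library above leaf.

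Of the 3 MYB114-like members, 2 went the other way. DN145802_c2_g12 was at 2.87, 2.07 and 1.75 FPKM in flower and at 11.6, 15.9 and 23.4 in leaf, with the widest leaf spread of the group (log2 fold change -2.84, SE 0.45, limma FDR = 0.000221), and it was not called with a pseudocount of 0.01. DN145308_c4_g6 was at 4.31 ± 0.600 FPKM in flower and 10.1 ± 1.16 in leaf (-1.21, SE 0.18). DN147278_c5_g2, also MYB114-like, stood at 2.51 ± 0.637 and 2.13 ± 0.255 FPKM, with overlapping libraries. The 2 remaining MYB10 unigenes tested, DN109626_c0_g1 and DN30159_c0_g1, had no library above 0.158 FPKM in either tissue. Summed over its 8 members the group amounted to 26.9 FPKM in flower and 29.5 in leaf.

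Homologs of phenylpropanoid repressors formed the largest named group, with 24 members. In *Arabidopsis* MYB4 represses sinapate ester genes, MYB3 and MYB7 are its close relatives, and MYB308 and MYB330 lower lignin and phenolic acid genes when snapdragon forms are expressed in tobacco. Of 20 tested, 6 were higher in flower (30.0%), 5 were lower (25.0%) and 9 did not pass, beside 12.2% and 6.56% of all unigenes. The median log2 fold change was 0.12. Their summed level was 111 FPKM in flower and 130 in leaf. Calls of MYB4 and MYB330 homologs occurred on both sides, whereas both MYB3 homologs called were higher in flower and both MYB308 or MYB308-like homologs called were lower.

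On the flower side, DN138619_c0_g2 (MYB3) was at 11, 11.1 and 13.1 FPKM, and in leaf at 0.542, 0.345 and 0.368, a 28.0-fold difference (log2 fold change 4.53, SE 0.26, limma FDR = 1.83e-08). DN147056_c0_g1 (MYB4) was at 17.0, 15.4 and 15.9 FPKM in flower and 1.15, 1.08 and 0.969 in leaf, a log2 fold change of 3.80 (SE 0.21). The other MYB3 homolog, DN147128_c3_g4, whose primers are given above, was at 13.0, 13.5 and 11.5 against 0.775, 0.909 and 0.926 FPKM (3.72, SE 0.09, limma FDR = 3.52e-11). These unigenes, the 3 with the largest folds of the group, were low but above 0 in all leaf libraries. The MYB330 homolog DN144669_c3_g3 stood at 5.77 ± 0.867 FPKM in flower and 1.94 ± 0.406 in leaf. DN144339_c1_g4 (MYB6-like), also with primers above, stood at 11.2 ± 0.631 and 4.64 ± 0.170 FPKM (1.25, SE 0.08), and after median-of-ratios scaling its log2 fold change of 0.92 was below the threshold. DN148048_c1_g1 (MYB7) was at 0.113, 0.262 and 0.226 FPKM in flower and listed at 0 in leaf, and it was not called with a pseudocount of 1.

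On the leaf side, DN146415_c3_g1 (MYB4-like) was at 15.2, 14.6 and 15.3 FPKM in leaf and at 0.965, 1.35 and 1.17 in flower, a 12.9-fold difference (log2 fold change -3.60, SE 0.19, limma FDR = 1.21e-08). DN136168_c0_g1 (MYB308) was the most abundant of the group, at 57.6, 59.2 and 61.3 FPKM in leaf and 20.8, 20.6 and 22.7 in flower (-1.47, SE 0.13). The 3 others, DN138619_c0_g3 (MYB4), DN146459_c0_g1 (MYB330) and DN142694_c0_g3 (MYB308-like), had log2 fold changes of -2.07, -1.58 and -1.48. None of the 5 overlapped between the tissues, which was true of all 18 *MYBs* called lower. Of all unigenes tested, 14.8% had every flower library below leaf. A pseudocount of 0.01 removed the calls of DN146459_c0_g1 and of DN144669_c3_g3, the MYB330 homologs of either side. Among the members not called were DN138607_c0_g1 (MYB4), at 2.64 ± 0.146 FPKM in flower and 2.27 ± 0.130 in leaf but 28.9 in stem, DN144022_c3_g4 (MYB308), at 1.82 ± 0.195 and 1.03 ± 0.188, and DN138451_c0_g1 (MYB308-like), at 14.1 ± 0.203 and 11.5 ± 0.736.

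**Figure D4:**
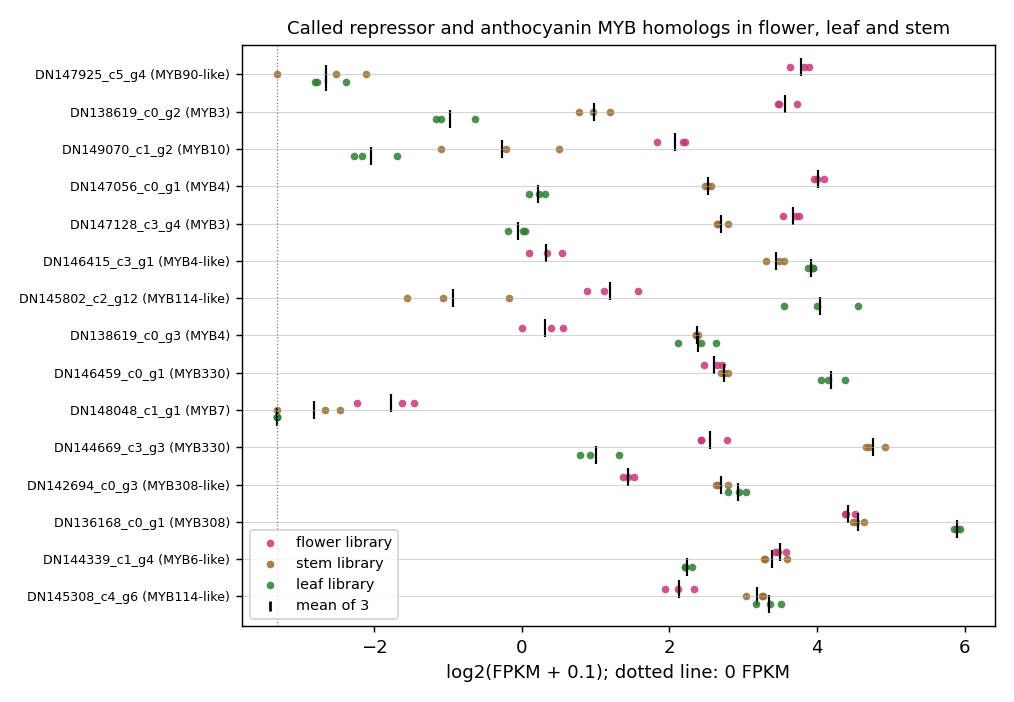
The 15 homologs of phenylpropanoid repressors and anthocyanin activators called between flower and leaf, with stem added and log2(FPKM + 0.1) on the horizontal axis. Points are single libraries, 3 per tissue, and bars are means. Stem lay near leaf for DN147925_c5_g4, at 0.0687 FPKM on average, near flower for DN136168_c0_g1, at 23.4, and above both for DN144669_c3_g3, at 27.1.

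Assembly limits how far such neighbours can be separated. Trinity groups sequences that share stretches into components, and 57 *MYBs* lie in 19 components with at least 1 other *MYB*, so fragments may be split between them. In component DN138619_c0 the MYB3 unigene DN138619_c0_g2 and the MYB108-like DN138619_c0_g1 were higher in flower and the MYB4 unigene DN138619_c0_g3 was lower. Component DN142862_c4 likewise held DN142862_c4_g2 (MYB5-like), higher in flower, and DN142862_c4_g4 (MYB11), lower. In the other 17 components no *MYBs* were called in opposite directions.

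Floral organ homologs were called in 1 direction. In *Arabidopsis* MYB21, MYB24 and MYB108 act downstream of jasmonate in stamen maturation and petal growth, and MYB305 of snapdragon activates phenylpropanoid genes in flowers. Of 10 members 9 were tested, 6 were higher in flower and none lower, beside 12.2% and 6.56% of all unigenes, and the median log2 fold change was 2.41 against 0.03 over all unigenes tested. Most of their values were low. DN148254_c1_g2 (MYB21) was at 1.08, 0.670 and 0.966 FPKM in flower and listed at 0 in all leaf libraries, as was DN148048_c1_g5 (MYB24), at 0.892, 0.673 and 0.765 in flower. DN141656_c0_g1, also a MYB21 homolog, was at 0.772, 0.982 and 1.21 FPKM in flower and at 0.0403, 0.0524 and 0 in leaf (3.06, SE 0.31, limma FDR = 3.50e-06). No library of leaf reached the lowest flower library in any of the 3, which was true of all 35 *MYBs* called higher and of 29.4% of all unigenes tested.

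The MYB305-like DN138638_c0_g1 was at 0.617 ± 0.0421 FPKM in flower and 0.0374 ± 0.0346 in leaf. Higher levels were found for the MYB108 homologs. DN146459_c2_g7 was at 5.81, 5.11 and 5.21 FPKM in flower and 1.27, 1.04 and 1.25 in leaf (log2 fold change 2.09, SE 0.27), and DN138619_c0_g1 at 3.65, 3.04 and 3.67 against 0.465, 0.569 and 0.302 (2.73, SE 0.21). With a pseudocount of 1, which called 7.66% of all unigenes higher, these 2 were the only members still called. None of the 6 was called higher in flower than in stem, and DN138638_c0_g1 was called lower than in stem, where its mean was 1.63 FPKM. Stem means of DN148254_c1_g2 and DN141656_c0_g1 were 1.80 and 1.05 FPKM, beside 0.906 and 0.990 in flower. The homologs of GAMYB, a gibberellin-regulated activator in cereal aleurone and anthers, and of MYB35, a tapetum regulator of *Arabidopsis*, did not pass, with DN147282_c0_g1 at 4.81 ± 0.250 and 4.46 ± 0.217 FPKM and DN146048_c0_g4 at 5.04 ± 0.211 and 4.99 ± 0.222.

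**Figure D5:**
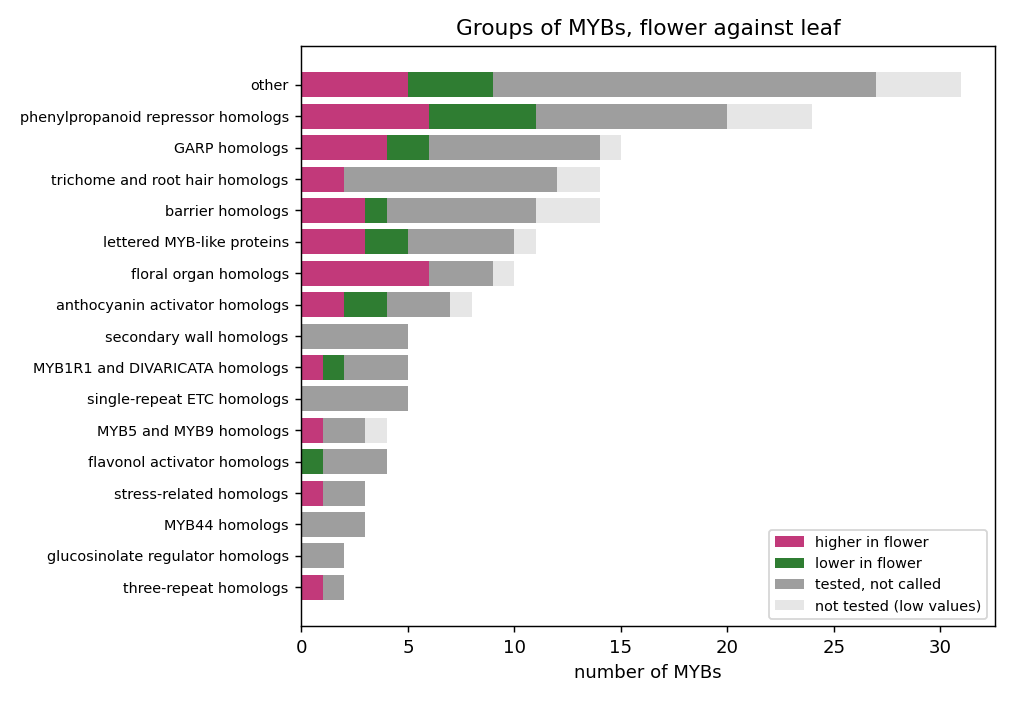
Number of *MYBs* per group called higher in flower, called lower, tested but not called, and not tested for low values. Horizontal bars are stacked counts of members, and 3 *MYBs* with an insect best match, none of them tested, are not drawn. Repressor homologs show 6 and 5 calls in the opposite directions and floral organ homologs 6 in 1 direction.

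Homologs of regulators of the plant's barriers were called in both directions. These are named after MYB306 and MYB96, whose *Arabidopsis* relatives drive cuticular wax, MYB92 and MYB39, which act on suberin there, and MYB36, which sets the Casparian strip of the root. Of 14 members, 11 were tested, 3 were higher in flower, 1 was lower and 7 did not pass, a small count beside 12.2% and 6.56% of all unigenes. The MYB306-like DN144669_c3_g1 was at 7.60, 8.04 and 7.27 FPKM in flower and listed at 0 in every leaf library, the highest level of any *MYB* so listed. It passed the filter only through the flower libraries, so its call is no independent evidence. DN66535_c0_g1 (MYB92) was at 33.9, 31.7 and 33.3 FPKM in flower and 6.97, 6.36 and 6.49 in leaf, a 4.99-fold difference (log2 fold change 2.30, SE 0.08, limma FDR = 2.17e-10). The MYB36-like DN149746_c2_g7 was at 11, 16.7 and 16.5 against 3.18, 1.25 and 1.31 FPKM, where flower 1 was the lowest flower library and leaf 1 the highest leaf library. A different MYB306-like unigene, DN144626_c1_g2, was lower in flower, at 5.42, 6.25 and 6.12 FPKM against 29.3, 28.4 and 32.2 in leaf (-2.32, SE 0.29). These MYB306-like unigenes had the highest and the lowest log2 fold change of the group, but the highest is the one limited by the filter. The other MYB306-like members tested were not called.

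Homologs of the flavonol activators MYB11 and MYB12 of *Arabidopsis* were not called higher in flower. Of 4 tested, 0 were higher and 1 was lower, small counts beside 12.2% and 6.56% of all unigenes. DN142862_c4_g4 (MYB11) was lower, at 3.87, 3.90 and 5.12 FPKM in flower and 11.1, 11.6 and 11.2 in leaf (log2 fold change -1.39, SE 0.20, limma FDR = 9.09e-05). The most abundant of the 4 members, DN111034_c0_g1 (MYB12), was at 32.9 ± 1.10 and 39.7 ± 4.83 FPKM and was not called. DN145308_c4_g7 (MYB12b), at 0.589 ± 0.298 and 1.12 ± 0.103 FPKM, was called lower in flower after median-of-ratios scaling (-1.20) and without flower 3 (-1.23, limma FDR = 0.000912). The last member, a MYB111 homolog, was listed at 0 in all flower and leaf libraries, so it was tested only through other tissues and could not be called. In a separate group, of MYB5 and MYB9 homologs, DN145308_c4_g1 (MYB5), at 9.35 ± 0.0368 and 13.1 ± 0.287 FPKM, was below the fold threshold. DN142862_c4_g2, also named after MYB5, an activator in the *Arabidopsis* seed coat, was higher in flower at 1.37, 1.26 and 1.18 FPKM against 0.161, 0.550 and 0.514. This call was weak, with a limma FDR of 0.00473 that became 0.104 with a pseudocount of 0.01, 0.0174 after median-of-ratios scaling, 0.0193 with the 6 libraries alone, 0.0184 without leaf 1, and 0.0161, 0.0137 and 0.0113 without flower 1, 2 and 3.

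Homologs of GARP proteins, single-repeat relatives of the MYBs, were called both ways as well. The group is named after EFM, which delays flowering in *Arabidopsis* by repressing the florigen gene FT, after APL, and after the PHL proteins of the phosphate response. Of 15 members, 14 were tested, 4 were higher in flower (28.6%) and 2 lower (14.3%), beside 12.2% and 6.56% of all unigenes and 18.4% and 9.74% of those with a mean of at least 1 FPKM. DN143137_c2_g1 (EFM) was at 25.1, 25.3 and 25.3 FPKM in flower and at 7.77, 7.26 and 7.94 in leaf (1.71, SE 0.10, limma FDR = 1.88e-08). DN145164_c1_g1, also an EFM homolog, was the reverse, at 6.48, 6.64 and 6.68 against 21.5, 21.7 and 21.0 FPKM (-1.68, SE 0.09, limma FDR = 1.49e-08). Both EFM unigenes had replicates within a narrow range, so that the tissues did not come near each other.

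The EFM homolog DN127588_c0_g1 stood at 2.80 ± 0.170 FPKM in flower and 0.832 ± 0.140 in leaf, and the last one, DN146463_c1_g1, at 11.1 ± 0.378 and 12.4 ± 0.749, was not called. Among APL homologs, DN130043_c0_g1 was at 2.34, 2.99 and 3.01 FPKM in flower and 0.271, 0.0325 and 0.0475 in leaf (3.89, SE 0.32), and DN142101_c1_g2 at 28.3 ± 0.720 and 11.2 ± 1.99. DN149346_c2_g2 (APL) was called lower, at 1.04 ± 0.195 FPKM in flower and 3.27, 2.91 and 1.52 in leaf, but barely (limma FDR = 0.00698). Its FDR was 0.0376 without leaf 1, 0.0333 without leaf 2, 0.0323, 0.0196 and 0.0110 without flower 1, 2 and 3, and 0.0104 to 0.0106 without stem 3, mature fruit 2 or mature fruit 3. Of the PHL homologs, DN146474_c3_g1 (PHL6) was at 11.7 ± 0.165 and 7.79 ± 0.494 FPKM and DN143480_c3_g1 (PHL7) at 8.08 ± 0.554 and 7.95 ± 0.322. DN129876_c0_g1 (PHL8) had a log2 fold change of -0.87, which became -1.20 and was called after median-of-ratios scaling.

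The widest difference toward leaf belonged to MYB-like proteins that carry only a letter, names that give no plant function. DN143366_c4_g3 (MYB-like protein J) was at 61.2, 59.8 and 64.4 FPKM in leaf and at 1.39, 1.53 and 1.36 in flower, 43.4-fold apart (log2 fold change -5.34, SE 0.17, limma FDR = 1.50e-10). Stem lay between them at 13.1 ± 0.470 FPKM. DN145224_c1_g2 (MYB-like protein P) was at 35.3 ± 4.52 FPKM in leaf and 5.48 ± 0.457 in flower. The letter did not decide the direction, as DN128191_c0_g1 and DN58257_c0_g1, also MYB-like protein J, were higher in flower at 5.08 ± 0.392 and 2.79 ± 0.154 FPKM against 0.303 ± 0.0546 and 0.251 ± 0.0341. DN70434_c0_g1 (MYB-like protein Q) was at 3.67, 4.22 and 4.52 FPKM in flower and 0.155, 0.0679 and 0.172 in leaf (4.22, SE 0.27). Of 11 members, 10 were tested, 3 higher and 2 lower in flower, beside 12.2% and 6.56% of all unigenes. The most abundant of those not called after DN144159_c2_g1 was DN144656_c3_g2 (MYB-like protein X), at 29.1 ± 3.01 and 26.1 ± 0.608 FPKM.

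DN133642_c0_g1 (MYB1R1), named after a drought-related single-repeat MYB of potato, was the second most abundant *MYB* in leaf, at 125, 126 and 123 FPKM, and stood at 28.3, 29.1 and 26.5 in flower (log2 fold change -2.16, SE 0.09, limma FDR = 9.43e-10). Another MYB1R1 homolog, DN148732_c1_g1, was at 26.0 ± 0.219 and 25.9 ± 0.944 FPKM. It was thus near equal in deposited FPKM, and its log2 fold change was 0.01, or -0.33 after median-of-ratios scaling. DN146326_c1_g5, of the same group, was at 0.425, 1.15 and 0.192 FPKM in flower and listed at 0 in leaf.

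Three-repeat MYBs of *Arabidopsis* act on genes of the transition to mitosis. DN148161_c1_g2 (MYB3R-1) was at 21.0, 21.0 and 19.8 FPKM in flower and 4.56, 5.41 and 5.22 in leaf, a 4.07-fold difference (2.01, SE 0.24, limma FDR = 1.86e-05). The other member, DN144228_c3_g1 (MYB3R-3), was at 32.7 ± 0.756 and 43.7 ± 1.66 FPKM, with flower below leaf in every library (-0.42, SE 0.10) but short of the fold threshold.

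Among homologs of trichome and root hair regulators, named after MYB82, WER and GL1 of *Arabidopsis*, 12 of 14 were tested, 2 were higher in flower (16.7%) and none lower, a share near the 12.2% of all unigenes. DN146459_c2_g1 (MYB82-like) was at 49.7, 51.7 and 46.1 FPKM in flower and 15, 12.4 and 13.4 in leaf (1.85, SE 0.32, limma FDR = 0.000472). DN146459_c2_g11 was at 0.190, 0.357 and 0.352 FPKM in flower and listed at 0 in leaf. These share component DN146459_c2 with 6 other *MYBs*. MYB82-like members outside the calls included DN144568_c0_g4, at 7.74, 9.18 and 9.08 FPKM against 2.37, 3.12 and 4.33 (1.42, SE 0.44), and DN148549_c3_g4, at 11.7 ± 1.82 against 4.55 ± 0.194. Their tissues did not overlap, their limma FDR were 0.0227 and 0.0280 with the spread of all 15 libraries, and 0.00146 and 0.000126 when only the 6 flower and leaf libraries were fitted, a fit that called 15.9% of its unigenes higher. With all tissues in the fit, DN144568_c0_g4 also passed without mature fruit 1 or 2 (limma FDR = 0.00479 and 0.00406) and DN148549_c3_g4 without mature fruit 3 (3.87e-05).

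The same held for DN143182_c1_g1 (MYB13), in the stress-related group with MYB15, a regulator of cold and defence genes in *Arabidopsis*. It was at 14.7, 18.8 and 22.4 FPKM in flower and 4.40, 3.64 and 6.70 in leaf, a log2 fold change of 1.93 (SE 0.77, limma FDR = 0.0732 with 15 libraries, 0.000658 with 6 and 0.00775 without mature fruit 2). DN137108_c0_g1 (MYB15) was low in both, at 0.237 ± 0.158 and 0.260 ± 0.182 FPKM. DN146459_c2_g4, matched to a cold- and ABA-responsive MYB of chicory, was at 0.665, 1.28 and 0.629 FPKM in flower and listed at 0 in leaf and stem. It was called with a limma FDR of 5.04e-08, but it passed the filter only through the 3 flower libraries, so that value is no independent evidence, and without any 1 of them it was not tested.

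No member was called in 4 groups of 2 to 5 members, beside calls in 18.8% of all unigenes tested. Secondary wall homologs, after the *Arabidopsis* wall regulator MYB46 and relatives, had log2 fold changes of -0.84 to 0.71 over 5 members, with DN146433_c2_g3 (MYB46) at 16.2 ± 1.99 and 9.89 ± 1.53 FPKM. After median-of-ratios scaling DN145308_c1_g1 (MYB86), at 5.38 ± 0.119 and 9.73 ± 0.757 FPKM, was lower in flower (-1.17). MYB44 homologs, after an abscisic acid-responsive regulator of *Arabidopsis*, had 3 members. DN143203_c0_g1 and DN99221_c0_g1 lay below leaf in every flower library, at 18.3 ± 0.907 against 27.2 ± 0.117 and 16.5 ± 0.756 against 28.9 ± 1.73 FPKM, and DN99221_c0_g1 was called lower after scaling (-1.13). The other, DN144824_c3_g1, was at 7.5 ± 1.11 and 7.5 ± 0.727 FPKM. The 5 ETC homologs and the 2 homologs of glucosinolate regulators had log2 fold changes of -0.97 to 0.25.

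The remaining 31 *MYBs* had best matches without a group. Of 27 tested, 5 were higher in flower (18.5%), DN145829_c0_g2 among them, and 4 lower (14.8%), beside 12.2% and 6.56% of all unigenes. Of unigenes with a mean of at least 1 FPKM, 18.4% were higher and 9.74% lower. DN146048_c0_g2 (MYB1) was at 8.84, 7.06 and 9.33 FPKM in flower and 1.78, 1.81 and 1.55 in leaf (2.22, SE 0.13). DN143339_c4_g1, matched to a putative MYB of a rose hybrid, was at 10.4 ± 0.910 and 3.97 ± 0.791 FPKM, and DN145009_c3_g1 at 0.933 ± 0.247 and 0.126 ± 0.0849. Toward leaf, DN127958_c0_g1, described as a transcriptional activator MYB, was at 11.2, 9.82 and 11.6 FPKM in leaf and 1.37, 2.0 and 2.26 in flower (-2.50, SE 0.19). DN149725_c2_g2, DN143003_c0_g1 and DN146011_c1_g1 had log2 fold changes of -2.36, -1.53 and -1.06. DN149725_c2_g2 was not called with a pseudocount of 0.01, nor DN143003_c0_g1 with the 6 libraries alone.

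The fifth toward flower, DN6351_c0_g1 (MYB315), was at 0.225, 0.145 and 0.176 FPKM in flower and at 0.0703, 0 and 0 in leaf, close to the floor of the files. Its limma FDR of 0.00394 became 0.0115 after median-of-ratios scaling, 0.0217 without leaf 2, 0.0216 without leaf 3, 0.0182 without flower 1 and 0.0121 without flower 3. Like it, DN142862_c4_g2, DN143003_c0_g1, DN145009_c3_g1, DN146326_c1_g5, DN146459_c2_g4, DN146459_c2_g11 and DN149346_c2_g2 kept their direction but were not called with a pseudocount of 1.

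Of the *MYBs*, 8 were above 0 in all flower libraries and at 0 in all leaf libraries and 0 showed the reverse. Among all 63727 unigenes, the counts were 819 and 428. The *MYBs* are a far smaller set, 142 tested and 21 not tested, so each count is to be read against the size of its set. Since the reverse was rare among all unigenes, a count of 0 in so few *MYBs* says little. With a level above 1 FPKM required in place of above 0, 1 *MYB* and 119 unigenes remained for flower. A further 19 *MYBs* were at 0 in all 6. DN140431_c0_g1 (WER-like), at 0.0545, 0.144 and 0.103 FPKM in flower, was the only one of the 8 not called. Some values rested on a single library and were not tested, such as 3.94 FPKM of DN147056_c0_g2 (MYB4) in flower 1 with 0 in the other 5. A value of 0 says only that no FPKM was assigned, and a library's floor is not known without counts. The 3 *MYBs* with an insect best match, whose origin was not tested, were too low for the comparison and summed to 0.0320 to 0.140 FPKM in flower and 0.0611 to 0.299 in leaf.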

How the data were processed

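The authors trimmed reads (Trimmomatic in the submitters' notes), assembled all tissues with Trinity, aligned reads to that assembly with Bowtie2 and estimated abundance by RSEM (versions not given in the sources used here). Deposited was 1 FPKM value per unigene and library. Fragment counts and depth are not in these values, so no counting error is known.

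Here log2(FPKM + 0.1) was fitted with limma 3.58.1 in R 4.3.3 (eBayes, prior variance following the level), with all 15 libraries in 1 fit and 1 mean per tissue. Only unigenes exceeding 0.1 FPKM in 3 or more libraries were tested. Fold changes on this scale understate those of low unigenes. Calls required a Benjamini-Hochberg adjusted p (FDR) of 0.01 or less and a log2 fold change of 1 or more in either direction. Single values per library were compared by exact permutation (scipy 1.17.1). Folds without a log are ratios of mean FPKM. The fit was tested on simulated data with the same spread in every tissue and changes set only in unigenes well above the floor in leaf. That simulation does not cover calls resting on values near the floor or on unequal spread.

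Named are the *MYBs* called, the 5 most abundant in each tissue, those of the qRT-PCR assay and those listed at 0 in 1 tissue only. Also named are 4 other unigenes with extreme fold changes, taken among those called whose tissues did not overlap. Group members with a mean of at least 1 FPKM in flower or leaf also fall under the rule, but only part of them are named and the rest are given as counts. DN109626_c0_g1, DN30159_c0_g1 and DN137108_c0_g1 were named outside this rule after their values were seen. The comparison, the 17 groups made from best-match descriptions and the tests were chosen with earlier results of these data known. Alternatives were other pseudocounts, filters, thresholds and scaling, a fit of 6 libraries, no variance trend, a replicate block and leaving out each library. Read depths, qRT-PCR values and the study's own comparisons were not used here.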

Additional observations from a re-analysis of the deposited data

How the results depend on the processing

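Of the counts, those of all unigenes moved most. With a pseudocount of 1, 6190 unigenes were called, 3920 of them higher in flower. With no threshold on the fold change 9643 were higher, and at a log2 fold change of 2 or more in either direction, 3885 were called, 2448 higher and 1437 lower, with 33 *MYBs* called and 9 of these lower. Above 1 FPKM instead of above 0, 119 unigenes were found in all flower libraries and at 0 in leaf, and 40 the reverse. The difference in summed *MYB* FPKM, 402, became -99.9 without DN145829_c0_g2 and 55.0 after median-of-ratios scaling.

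Of the 53 *MYBs* called, 40 remained with a pseudocount of 1, 48 with 0.01, 50 after scaling, 49 with the 6 libraries alone, and 49 whichever library was left out. Leaving out 1 library gave 8513 to 9679 unigenes and 49 to 54 *MYBs*. Same-numbered flower and leaf libraries did not deviate together (r -0.0166 to 0.0079), so the numbers were not taken as pairs. With the replicate number as a block 9398 unigenes and 52 *MYBs* were called, DN149346_c2_g2 being the one lost.

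With a pseudocount of 1, a unigene under 1 FPKM in flower and at 0 in leaf cannot reach a log2 fold change of 1, so losses of such *MYBs* there follow from the setting. Without counts the error of low values is not known.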
